A study of Homo sapiens with 16 samples.

Results

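The 8 tubulin genes TUBA1A, TUBA1B, TUBA1C, TUBB, TUBB2A, TUBB3, TUBB4B and TUBB6 were followed in HMC3 cells, a human cell line described as microglial, that were labelled wild type or METTL3 KO (knockout). The genes were chosen by symbol, and all 8 were found among the 60669 genes of both deposited tables. METTL3 encodes the catalytic subunit of the enzyme that writes N6-methyladenosine (m6A) on messenger RNA. The 16 libraries were of 2 kinds: 5 wild-type and 5 knockout libraries of poly(A) RNA made with Smart-seq2, and 3 wild-type and 3 knockout libraries made with a directional kit after removal of ribosomal RNA. The cells of both genotypes carry no treatment in the labels, which do not say how the knockout was made, how many clones it rests on, or whether the replicates came from separate cultures. The p-values therefore measure the spread between these libraries, which may be technical. For the rRNA-depleted libraries the values were TPM, which correct reads for gene length and have the same sum in every library. For the poly(A) libraries the values came from the authors' deposited table of 1 comparison, which pools the libraries.

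Tubulin is the building block of microtubules. An alpha and a beta subunit form a heterodimer, and heterodimers join head to tail into the hollow polymers that carry cargo, separate chromosomes and shape cells such as the branched and migrating microglia of the brain. Each subunit is encoded by several genes, the isotypes, whose proteins are nearly alike except for an acidic tail that projects from the polymer, where motors and enzymes act. Cells also sense free tubulin: when it is in excess, a factor that reads the first residues of newly made tubulin triggers decay of the mRNA being translated.

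The opening of the coding sequence is shown because it encodes the residues that this autoregulation reads. The capitals mark the first 12 coding bases, taken from the GENCODE 29 transcripts on GRCh38.
TUBA1A, TUBA1B and TUBA1C: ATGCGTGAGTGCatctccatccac
TUBB: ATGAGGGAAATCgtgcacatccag
TUBB2A: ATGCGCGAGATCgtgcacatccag
TUBB3 and TUBB6: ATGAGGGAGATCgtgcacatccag
TUBB4B: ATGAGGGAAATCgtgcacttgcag
The 3 alpha genes were identical over these 24 bases, while the 5 beta genes used 4 different spellings.

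The last 63 coding bases of the beta genes, stop codon included, are shown because they encode the tail by which the isotypes differ most. The capitals mark GAA and GAG, the codons for glutamate.
TUBB: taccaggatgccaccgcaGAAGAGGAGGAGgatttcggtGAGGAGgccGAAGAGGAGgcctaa
TUBB2A: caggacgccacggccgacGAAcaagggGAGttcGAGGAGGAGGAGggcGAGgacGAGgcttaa
TUBB3: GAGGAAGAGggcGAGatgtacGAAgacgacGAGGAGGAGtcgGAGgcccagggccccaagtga
TUBB4B: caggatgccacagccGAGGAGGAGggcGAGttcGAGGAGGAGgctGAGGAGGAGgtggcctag
TUBB6: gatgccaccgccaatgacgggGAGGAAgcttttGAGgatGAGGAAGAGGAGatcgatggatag
Among the 20 codons before the stop, glutamate codons numbered 9 in TUBB and TUBB3, 10 in TUBB4B, 8 in TUBB2A and 7 in TUBB6.

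Sequence likeness bears on how far the counts of these genes can be told apart. Over the whole coding sequence TUBA1A and TUBA1B were 97.2% identical, TUBA1B and TUBA1C 96.8%, and TUBA1A and TUBA1C 95.9%. Beta genes were less alike, from 80.95% between TUBB and TUBB6 to 87.7% between TUBB2A and TUBB3. Of all stretches of 50 bases in a gene's principal transcript, the share also present in transcripts of another gene was 62.7% for TUBA1B, 41.1% for TUBA1A and 25.1% for TUBA1C, mostly from each other. It was 65.5% for TUBB2A, of which the copy TUBB2B accounted for 60.3%, and 89.4% for TUBB3, where a readthrough gene model on the same strand contains it. TUBB had 18.2%, mostly shared with the pseudogene TUBBP1, TUBB4B 9.89% and TUBB6 0.993%. How the authors counted reads that match several genes is not given in the sources used here. The split among the alpha genes and between TUBB2A and TUBB2B is therefore uncertain. The level of TUBB3 is uncertain too, since most of its sequence also lies in the readthrough model. TUBB4B and TUBB6 depend least on how such reads were counted. The 51 tubulin pseudogene rows of the TPM table summed to 2.02 to 26.4 TPM per library, and 45 of them were at 0 in all 6.

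The rRNA-depleted libraries were shallow, with 266130 to 487243 reads recovered from the TPM values in wild type and 512596 to 1267176 in knockout. Every knockout library was deeper than every wild-type library, which bears on zeros, overlap and changes of genes with few reads. The part of depth in the calls was not tested. Knockout libraries 1 and 2 differed by no more than sampling noise (chi-square test of reads over 10120 genes, 1.02 per degree of freedom, p = 0.065), whereas the other pairs gave 1.16 to 1.53. They were therefore averaged and counted as 1 sample, so that n = 3 for wild type and n = 2 for knockout. METTL3 mRNA does not check the label: it read 31.2, 31.6 and 25.4 TPM in wild type and 39.2, 39.96 and 42.7 TPM in knockout (log2 change 0.48, SE 0.19, limma adjusted p = 0.106), and an mRNA level says nothing of the protein. Of 10 microglial markers, 7 were at 0 in all 6 libraries (AIF1, CX3CR1, P2RY12, TMEM119, PTPRC, ITGAM and SPI1) and the 10 summed to at most 6.47 TPM, so the label microglial was not borne out by these genes. The 6 fibroblast markers summed to 11187 to 13629 TPM in wild type and 3348 to 3470 TPM in knockout, a difference carried by the collagen gene COL1A1 (10669 ± 1214 against 819 ± 64.5 TPM, SD, n = 3 and n = 2). Of the 5 that could be tested 3 were lower (COL1A1, COL1A2 and PDGFRB) and 2 higher (FN1 and THY1), while COL3A1 had 2 reads in 1 library and 0 in the other 5. The 6 neuronal markers summed to 0 to 9.60 TPM in wild type and 11.6 to 13.1 TPM in knockout, with RBFOX3 and ELAVL4 at 0. The part of these markers in the tubulin results was not tested. In bulk RNA, fewer cells with a transcript and less of it per cell cannot be told apart.

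In the rRNA-depleted libraries 5 of the 8 tubulin genes were higher in knockout than in wild type and none was lower. TUBB, TUBA1C, TUBB2A, TUBB4B and TUBA1B rose 1.95- to 3.18-fold, while TUBA1A, TUBB6 and TUBB3 did not pass the test. Calls were made with limma on log2(TPM + 1) at a Benjamini-Hochberg adjusted p under 0.05 over 14789 genes, and changes are knockout minus wild type on that scale. Of all genes tested, 35.3% passed, 22.9% higher and 12.4% lower, so a rise by itself was common. The median change of the 8 members was 1.02, beside 0.41 for all genes tested. The same 5 members, and no other, had all 3 knockout libraries above all 3 wild-type libraries, as did 38.4% of all genes tested. No member had all knockout libraries below all wild-type libraries, against 19.9% of all genes tested.

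**Figure D1:**
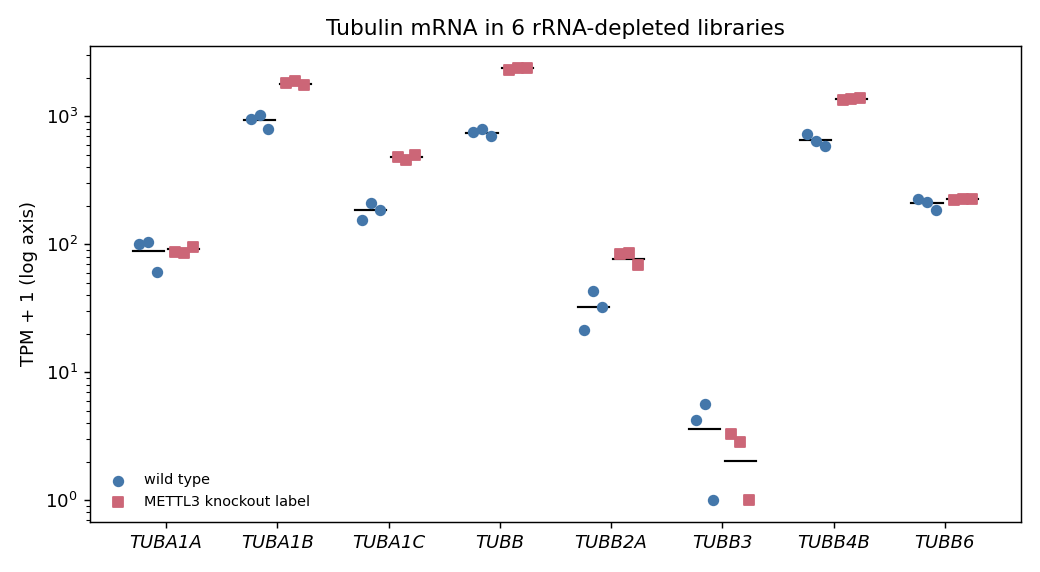
Level of each tubulin gene as TPM + 1 on a log axis, with 1 point per rRNA-depleted library (circles wild type, squares knockout) and a bar at the group mean, knockout libraries 1 and 2 averaged first. The groups of TUBA1B, TUBA1C, TUBB, TUBB2A and TUBB4B stand apart with knockout higher, and those of TUBA1A, TUBB3 and TUBB6 overlap.

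Among the alpha genes, TUBA1B was by far the most abundant. TUBA1B (ENSG00000123416, chromosome 12 from 49127782 to 49131397, minus strand, GENCODE 29) encodes the alpha isotype found in most cell types. It read 953, 1028 and 799 TPM in wild type and 1819, 1874 and 1747 TPM in knockout, with no overlap. It averaged 927 ± 117 TPM (SD, n = 3) in wild type against 1797 ± 70.2 TPM (SD, n = 2), a 1.95-fold difference or 0.96 on the log2 scale (SE 0.14, limma adjusted p = 0.0065). These values rested on 355 to 481 reads in wild type and 967 to 2445 in knockout.

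TUBA1C (ENSG00000167553, chromosome 12 from 49188736 to 49274603, plus strand), a close relative of TUBA1B, rose more. It read 154, 210.1 and 185 TPM in wild type and 481, 452 and 498 TPM in knockout, so that the lowest knockout library lay above the highest wild-type one. The group averages, 183 ± 27.8 TPM (SD, n = 3) and 482 ± 21.9 TPM (SD, n = 2), lay 2.64-fold apart, or 1.40 on the log2 scale (SE 0.15, limma adjusted p = 0.0034).

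TUBA1A (ENSG00000167552, chromosome 12 from 49184796 to 49189324, minus strand), the alpha isotype known for its high expression in developing neurons, stayed within its spread. It read 99.4, 103 and 59.5 TPM in wild type and 86.2, 84.9 and 94.4 TPM in knockout. All 3 knockout libraries lay inside the wild-type range, whose low end was set by wild-type library 3. The log2 change was 0.08 (SE 0.27, limma adjusted p = 0.835), which is 0.33 below the median of all genes tested. Its direction was not stable: it was -0.27 after median ratio scaling of the libraries and -0.17 without wild-type library 3. TUBA1A and TUBA1C overlap on opposite strands, and whether the authors counted by strand is not given in the sources used here. The same limit holds for TUBA1B, TUBB, TUBB3, TUBB4B and TUBB6, each of which overlaps another gene model on the opposite strand.

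Of the beta genes, TUBB changed most. TUBB (ENSG00000196230, chromosome 6 from 30720201 to 30725426, plus strand) encodes the beta isotype of most dividing cells. It read 746, 789 and 704 TPM in wild type and 2314, 2382 and 2405 TPM in knockout. The groups lay far apart, and each was tight, at 746 ± 42.3 TPM (SD, n = 3) in wild type and 2377 ± 40.5 TPM (SD, n = 2) in knockout. The difference was 3.18-fold, or 1.67 on the log2 scale (SE 0.10, limma adjusted p = 0.0011), 1.26 above the median of all genes tested.

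TUBB4B (ENSG00000188229, chromosome 9 from 137241213 to 137243707, plus strand) is a broadly expressed isotype that also builds cilia. It read 731, 637 and 584 TPM in wild type and 1337, 1374 and 1392 TPM in knockout, without overlap. It averaged 651 ± 74.6 TPM (SD, n = 3) in wild type against 1374 ± 25.8 TPM (SD, n = 2), a difference of 1.08 on the log2 scale (SE 0.13, limma adjusted p = 0.0039).

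TUBB6 (ENSG00000176014, chromosome 18 from 12307669 to 12344320, plus strand) encodes another broadly expressed beta isotype. It read 225.4, 214 and 183 TPM in wild type and 221, 226 and 223 TPM in knockout, and the groups overlapped. The log2 change was 0.11 (SE 0.12, limma adjusted p = 0.527), 0.30 below the median of all genes tested. Under other scalings it was -0.24 (median ratio) or, with a trend with GC content removed, 0.71 (limma adjusted p = 0.0167), so that the direction and the call of TUBB6 followed the scaling.

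TUBB2A (ENSG00000137267, chromosome 6 from 3153669 to 3157526, minus strand), a beta isotype abundant in neurons, was low in these cells. It read 20.5, 41.9 and 31.2 TPM in wild type and 83.5, 84.1 and 67.3 TPM in knockout, above every wild-type library. The log2 change was 1.30 (SE 0.33, limma adjusted p = 0.0318), but only 5 to 9 reads stood behind each wild-type value. The call was lost after median ratio scaling (limma adjusted p = 0.084) and without wild-type library 3 (limma adjusted p = 0.069).

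TUBB3 (ENSG00000258947, chromosome 16 from 89921392 to 89938761, plus strand), the isotype used as a marker of neurons, was at the edge of detection. It read 3.20, 4.67 and 0 TPM in wild type and 2.27, 1.85 and 0 TPM in knockout, which is 0 to 3 reads in every library. A fold is not interpretable at 3 reads or fewer, and a difference was not detectable at this depth (limma adjusted p = 0.591). The readthrough gene model on the same strand holds 89.4% of its stretches of 50 bases. Low values in either library type are therefore not read as low expression of TUBB3. The part of read assignment in these values was not tested.

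The count of risers depended on knockout library 3, the only knockout sample beside the averaged pair. Without it TUBB alone passed (limma adjusted p = 0.0165), while TUBA1C, TUBB4B, TUBA1B and TUBB2A had limma adjusted p of 0.060, 0.062, 0.083 and 0.166. All 5 kept a positive change there, and 1663 genes in place of 5220 passed the test.

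The order of levels in TPM shifted. In wild type it ran TUBA1B, TUBB, TUBB4B, then TUBB6 and TUBA1C, which overlapped, then TUBA1A, TUBB2A and TUBB3. TUBB and TUBB4B also overlapped in range, since the highest TUBB4B library (731) exceeded the lowest TUBB library (704). In knockout TUBB stood first, ahead of TUBA1B, TUBB4B, TUBA1C, TUBB6, TUBA1A, TUBB2A and TUBB3, where TUBA1A (89.97 ± 6.25 TPM, SD, n = 2) and TUBB2A (75.5 ± 11.6 TPM, SD, n = 2) lay within their spread of each other. The ratio of TUBB to TUBA1B went from 0.783, 0.767 and 0.881 in the wild-type libraries to 1.27, 1.27 and 1.38 in the knockout libraries. That of TUBA1C to TUBB6 went from 0.685, 0.983 and 1.01 to 2.18, 2.01 and 2.24. Orders and ratios between genes depend on the length used for each gene. The exon lengths that match the TPM are 3574 bases for TUBA1B and 3359 for TUBB, and the principal transcripts have 1627 and 2670. Which of TUBB and TUBA1B stands first can change with that choice, but the direction of a ratio's shift between genotypes cannot.

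Summed over the 3 alpha genes, tubulin mRNA stood at 1197 ± 149 TPM in wild type (SD, n = 3) and 2369 ± 42.0 TPM in knockout (SD, n = 2). The 5 beta genes summed to 1639 ± 120 TPM in wild type and 4050 ± 52.9 TPM in knockout (SD, n = 3 and n = 2). All 8 together held 2836 ± 255 TPM in wild type and 6419 ± 10.9 TPM in knockout (SD, n = 3 and n = 2), a ratio of 2.26. Averaging knockout libraries 1 and 2 hides part of the spread, since the knockout libraries summed to 6344, 6478 and 6427 TPM. Beta exceeded alpha in TPM in every library, by 1.26 to 1.44 times in wild type and 1.66 to 1.75 times in knockout. Which subunit leads can change with the length used for each gene, since TUBA1B has 3574 bases of exon and a principal transcript of 1627.

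Shares within a subunit family do not move with the scaling of a library, and they showed that the family did not move as 1 block. TUBB made up 43.2%, 46.8% and 46.9% of the beta sum in wild type and 58.5%, 58.6% and 58.8% in knockout, a gain of 13.1 percentage points. TUBB6 went from 13.1%, 12.7% and 12.2% to 5.58%, 5.54% and 5.45%, and TUBB4B from 42.4%, 37.8% and 38.9% to 33.8%, 33.8% and 34.1%. The groups of TUBB, TUBB6 and TUBB4B did not overlap, so TUBB4B rose in TPM while its share of the beta sum was lower. The share of TUBB2A stayed within its spread, at 1.92% ± 0.665 (SD, n = 3) and 1.87% ± 0.312 (SD, n = 2).

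Among the alpha genes TUBA1C went from 15.4% ± 2.47 (SD, n = 3) to 20.4% ± 1.28 (SD, n = 2) of the alpha sum. TUBA1A went from 7.20% ± 1.33 to 3.80% ± 0.331 (SD, n = 3 and n = 2), and neither pair of groups overlapped. TUBA1B kept the bulk, at 77.4% ± 1.36 and 75.8% ± 1.61 (SD, n = 3 and n = 2), with overlapping groups. These shares are descriptions with no test, and they inherit the uncertain split of reads among the alpha genes.

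**Figure D2:**
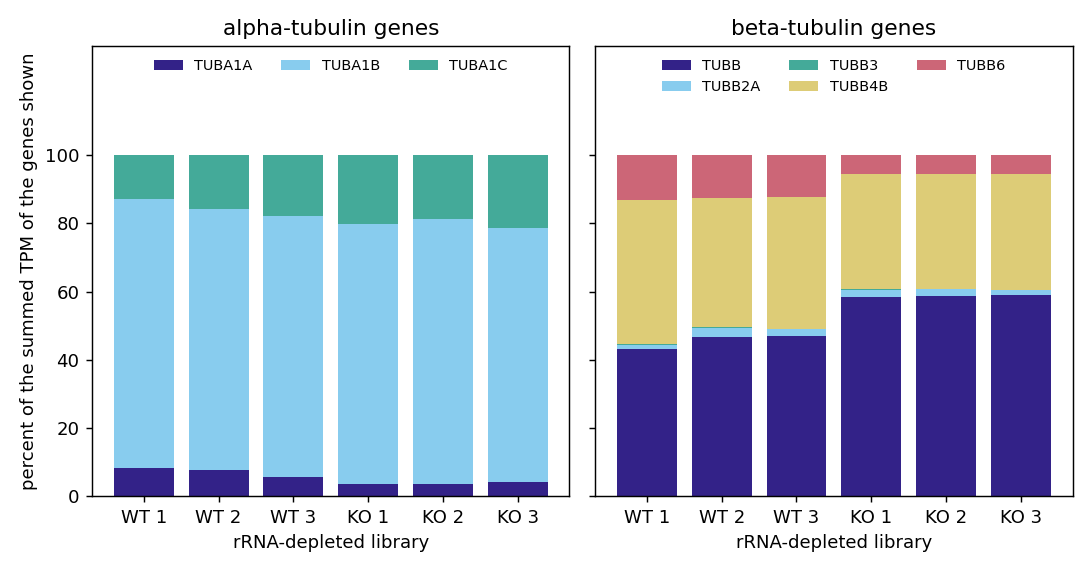
Share of each gene in the summed TPM of the 3 alpha genes (left) and the 5 beta genes (right), in percent, with 1 stacked bar per rRNA-depleted library. TUBB takes 43.2% to 46.9% of the beta sum in wild type (WT) and 58.5% to 58.8% in knockout (KO), and the TUBB6 segment shrinks from 12.2% to 13.1% to 5.45% to 5.58%.

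In the poly(A) libraries 7 of the 8 genes were lower in knockout, if knockout is the numerator of the deposited comparison. The authors' deposited table gave a negative log2 fold change with an adjusted p under 0.05 for 7 of the 8 members, and TUBB3 did not pass. Of all genes with an adjusted p in the authors' deposited table, 19.9% passed, 10.3% lower and 9.55% higher. The median of the 8 members was -0.38, beside 0.02 for all genes in the authors' deposited table. That table does not state which genotype is the numerator. Knockout is taken as the numerator because the table is named for it and because its signs then match those of the rRNA-depleted libraries for 91.5% of the 177 genes called in each type with a change of 1 or more, up or down, on the log2 scale. Over all 1327 genes called in each type, whatever the size, the match was 67.3%. If wild type were the numerator, every direction from the table would be opposite, and the 5 risers would be higher in knockout in both library types.

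TUBB again had the smallest adjusted p. Its mean normalized count, pooled over libraries, was 3102, and its log2 fold change was -0.50 (SE 0.05, adjusted p = 3.49e-19) in the authors' deposited table. TUBB2A, at a mean of 96.3, had the largest change, -1.03 (SE 0.14, adjusted p = 4.53e-12 in the authors' deposited table). TUBA1A and TUBB6, which had not passed the test in the rRNA-depleted libraries, were lower here: -0.46 (SE 0.08, adjusted p = 6.19e-07) and -0.32 (SE 0.09, adjusted p = 0.0021) in the authors' deposited table.

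The other 4 members lay between -0.43 and 0.65 in the authors' deposited table. The authors' deposited table gives -0.43 (SE 0.08, adjusted p = 1.97e-06) for TUBA1B and -0.31 (SE 0.09, adjusted p = 0.0053) for TUBA1C. TUBB4B, at -0.22 (SE 0.09), was closest to the threshold, with an adjusted p of 0.046 in the authors' deposited table. At an adjusted p threshold of 0.01 TUBB4B would not be called, whereas the other 6 would. TUBB3 had a mean normalized count of only 1.75 and a log2 fold change of 0.65 (SE 1.0, adjusted p = 0.727) in the authors' deposited table.

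Set against gene length, the poly(A) means, which pool both genotypes, ran in the order TUBB, TUBB4B, TUBA1B, TUBB6 and TUBA1A, then TUBA1C and TUBB2A at 56.02 and 55.8 counts per kb, whose order is not read, and TUBB3. The mean normalized counts per kb of exon ran from 923 for TUBB through 425 for TUBB4B and 214 for TUBA1B to 0.395 for TUBB3, from the authors' deposited table and GENCODE 29 lengths. By exon length, TUBB therefore stood first in the pooled poly(A) means and in the rRNA-depleted knockout libraries, but not in the rRNA-depleted wild type.

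All 5 members called higher in the rRNA-depleted libraries were called lower in the authors' deposited table. Of the 12498 genes tested in both, 3.03% had this pair of calls, 0.44% had the reverse pair, 5.18% were higher in both and 1.96% lower in both. The library types differ in RNA selection, kit and scale of the values, and the difference between them was not tested. A measurement that moves with genotype in the rRNA-depleted libraries is the share of 7SK, a non-coding RNA without a poly(A) tail, which took 3.69% to 4.07% of the TPM in wild type and 14.4% to 15.7% in knockout. Its part in the tubulin values was not tested.

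**Figure D3:**
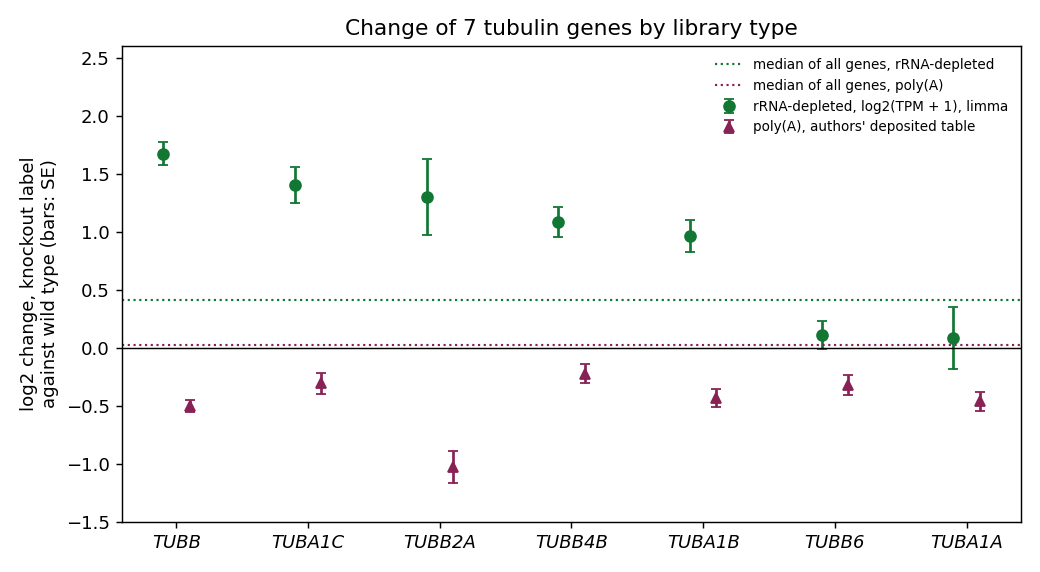
Log2 change of knockout against wild type for the 7 tubulin genes other than TUBB3, with bars of 1 SE: circles are the rRNA-depleted libraries (limma) and triangles the authors' deposited poly(A) table, with knockout taken as its numerator, and dotted lines are the medians of all genes (0.41 and 0.02). The circles of TUBB, TUBA1C, TUBB2A, TUBB4B and TUBA1B lie between 0.96 and 1.67, while all 7 triangles lie below 0.

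Beyond the 8 members, 7 of 14 other tubulin genes could be tested in the rRNA-depleted libraries, and 4 were higher, 1 lower and 2 not called. Their median change was 1.0. Here and in the lists below, the shares over all genes tested were 22.9% higher and 12.4% lower. In the authors' deposited table they were 9.55% higher and 10.3% lower. Counts near these shares are not read as results of a list. TUBG1, the gamma-tubulin that seeds microtubules at the centrosome, read 61.7, 68.7 and 54.6 TPM in wild type and 224, 225 and 265 TPM in knockout. Its groups lay well apart, 1.97 apart on the log2 scale (SE 0.15, limma adjusted p = 0.0017), above that of any of the 8 members. TUBG1 was at -0.14 (adjusted p = 0.218) in the authors' deposited table.

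TUBA4A, an alpha isotype made without the terminal tyrosine of the others, went the other way from TUBA1B and TUBA1C. It read 17.4, 33.0 and 20.5 TPM in wild type and 6.57, 10.1 and 4.75 TPM in knockout, without overlap. The log2 change was -1.70 (SE 0.42, limma adjusted p = 0.0295), and -1.28 (adjusted p = 5.86e-13) in the authors' deposited table, so that TUBA4A was lower in both. Its call in the rRNA-depleted libraries rested on 3 to 15 reads per library and was lost under 4 of 15 alternatives, among them leaving out wild-type library 2, wild-type library 3 or knockout library 3.

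TUBB4A, a beta isotype best known from the nervous system, read 20.4, 14.9 and 13.8 TPM in wild type and 46.4, 34.8 and 42.9 TPM in knockout, a difference of 1.31 on the log2 scale (SE 0.25, limma adjusted p = 0.0142). It was also positive, at 0.47 (adjusted p = 0.0246), in the authors' deposited table, unlike any of the 8 members that passed there. Without knockout library 3 the call of TUBB4A in the rRNA-depleted libraries was lost (limma adjusted p = 0.117). TUBB2B, the near copy of TUBB2A, did not pass in the rRNA-depleted libraries (0.65, limma adjusted p = 0.214, or 0.048 without wild-type library 3) and was at -0.74 (adjusted p = 0.0013) in the authors' deposited table.

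TUBG2, TUBE1 and TUBD1 were low. TUBG2 changed by 1.0 on the log2 scale (SE 0.28, limma adjusted p = 0.0435) from 3 to 6 wild-type reads, a call lost under 8 of 15 alternatives, including leaving out any of the 3 wild-type libraries or knockout library 3. TUBE1, the epsilon-tubulin of centrioles, was at 0 throughout wild type but read 6.73, 3.93 and 2.78 TPM in knockout (limma adjusted p = 0.0125). These knockout values rested on 14, 10 and 3 reads. Their mean was 1.21-fold the mean level of 3 reads per wild-type library. In wild-type library 2, however, 3 reads would be 4.45 TPM, above knockout libraries 2 and 3. The call of TUBE1 was lost with the GC trend removed (limma adjusted p = 0.0597). TUBD1, the delta-tubulin, did not pass (-0.46, limma adjusted p = 0.379). TUBA3C, TUBA3D, TUBA3E, TUBA8, TUBAL3, TUBB1 and TUBB8 were listed at 0 in all 6 libraries.

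Newly made tubulin is folded by the CCT chaperonin, fed by prefoldin, and paired into heterodimers by the cofactors TBCA to TBCE. Of the 8 CCT genes tested in the rRNA-depleted libraries, 6 were higher and 0 lower (22.9% and 12.4% over all genes tested). The median change of the CCT list was 1.33. CCT5, a subunit of the ring, read 114, 101 and 111 TPM in wild type and 358, 357 and 299 TPM in knockout (log2 change 1.58, SE 0.13, limma adjusted p = 0.0018). CCT6A, another subunit, changed by 1.62 (SE 0.20, limma adjusted p = 0.0045). By the authors' deposited table, none of the 8 was higher and 3 were lower, with a median of -0.03, and CCT5 was at -0.18 (adjusted p = 0.036).

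Of 12 cofactor and prefoldin genes tested, 4 were higher and 0 lower (22.9% and 12.4% over all genes tested), with a median of 0.87. PFDN2 and PFDN4, subunits of prefoldin, changed by 1.89 (SE 0.21, limma adjusted p = 0.0034) and 2.19 (SE 0.19, limma adjusted p = 0.0021). Both rested on few wild-type reads, 4 to 7 and 3 to 5, and without knockout library 3 PFDN2 had a limma adjusted p of 0.0628. The authors' deposited table has 7 of the 12 lower and 0 higher, with a median of -0.37, close to that of the 8 tubulin members, and PFDN2 and PFDN4 were at -0.52 (adjusted p = 0.0040) and -0.34 (adjusted p = 0.027).

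The 3 genes of tubulin mRNA autoregulation tested did not pass in either library type, with medians of 1.15 in the rRNA-depleted libraries and 0.24 in the authors' deposited table. Of 14 genes for enzymes that modify tubulin, 4 were higher, 0 lower and 10 not called, with a median of 1.05. Over all genes tested 22.9% were higher and 12.4% lower, so 4 of 14 is near the share over all genes. TTLL5, a glutamylase that adds glutamates to tubulin tails, read 6.35, 8.44 and 5.86 TPM in wild type and 25.7, 20.3 and 26.3 TPM in knockout (log2 change 1.71, SE 0.32, limma adjusted p = 0.0140, or 0.116 without knockout library 3). AGTPBP1, which trims such glutamates, was at 0 to 3 reads in wild type and 9 to 39 in knockout, at least 3.20-fold higher (limma adjusted p = 0.0342), a call lost under 6 of 15 alternatives, among them leaving out wild-type library 1, wild-type library 2 or knockout library 3. For 15 modifying enzymes the authors' deposited table has 2 lower and 0 higher (10.3% and 9.55% over all its genes), with a median of 0.00.

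Microtubule-associated proteins were mixed, with 7 of 19 higher and 2 lower (22.9% and 12.4% over all genes tested), and a median of 0.54. CKAP5, a polymerase of microtubule plus ends, read 51.4, 38.8 and 51.2 TPM in wild type and 212, 231 and 201 TPM in knockout (log2 change 2.15, SE 0.17, limma adjusted p = 0.0018), and was at 0.26 (adjusted p = 0.016) in the authors' deposited table. KIF2A, a kinesin that takes microtubules apart, changed by 2.55 (SE 0.29, limma adjusted p = 0.0038, or 0.0564 without knockout library 3). MAP7D1, a microtubule binder, read 336, 296 and 387 TPM in wild type and 159, 174 and 184 TPM in knockout (log2 change -0.95, SE 0.14, limma adjusted p = 0.0076). CAMSAP3, which binds minus ends, was at 0 to 1 read in knockout (limma adjusted p = 0.0325). Its wild-type mean was 2.52-fold the mean level of 3 reads per knockout library. That mean was raised by wild-type library 3: the wild-type libraries read 4.39, 4.27 and 13.6 TPM, from 3, 2 and 11 reads. With the GC trend removed MAP7D1 was at -0.13 and did not pass (limma adjusted p = 0.462), it was also lost without knockout library 3, and CAMSAP3, with 2 to 11 wild-type reads, was lost under 5 of 14 alternatives, among them leaving out wild-type library 1, wild-type library 3 or knockout library 3. The authors' deposited table had 3 of 19 higher and 3 lower, with a median of 0.13.

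The gamma-tubulin complex list had 3 of 9 higher and 1 lower (22.9% and 12.4% over all genes tested), with a median of 0.86. NEDD1, which anchors the complex, changed by 2.43 (SE 0.67, limma adjusted p = 0.0406), lost under 6 of 15 alternatives, among them leaving out wild-type library 3 or knockout library 3. The small subunits MZT1 and MZT2A went in opposite directions. MZT1 had at most 3 wild-type reads per library and was at least 3.81-fold higher (limma adjusted p = 0.0075), whereas MZT2A read 119, 96.1 and 159 TPM in wild type and 44.2, 45.5 and 41.0 TPM in knockout (log2 change -1.49, SE 0.23, limma adjusted p = 0.0084). Without knockout library 3 MZT1 and MZT2A had limma adjusted p of 0.0559 and 0.108. The authors' deposited table has 2 of the 9 lower and 1 higher, with a median of -0.08.

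Dividing cells build a spindle of microtubules, and proliferation markers were read beside the members. Of 10, 7 were higher and 1 lower in the rRNA-depleted libraries (22.9% and 12.4% over all genes tested). The median of the list was 0.48, close to the 0.41 of all genes tested. TOP2A, a topoisomerase of dividing cells, read 109, 104 and 80.9 TPM in wild type and 491, 476 and 385 TPM in knockout (log2 change 2.14, SE 0.18, limma adjusted p = 0.0020). CDK1, the mitotic kinase, read 41.4, 10.5 and 13.7 TPM in wild type and 142, 114 and 113 TPM in knockout (log2 change 2.65, SE 0.58, limma adjusted p = 0.0215), a call lost under 3 of 15 alternatives: with the GC trend removed and without wild-type library 3 or knockout library 3. MCM2, a subunit of the replicative helicase, read 478, 429 and 473 TPM in wild type and 199.7, 191 and 187 TPM in knockout (log2 change -1.26, SE 0.10, limma adjusted p = 0.0018). The list summed to 1932 ± 105 TPM in wild type (SD, n = 3) and 2852 ± 198 TPM in knockout (SD, n = 2). The authors' deposited table has 4 of the 10 lower and 2 higher. The part of proliferation in the tubulin values was not tested.

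**Figure D4:**
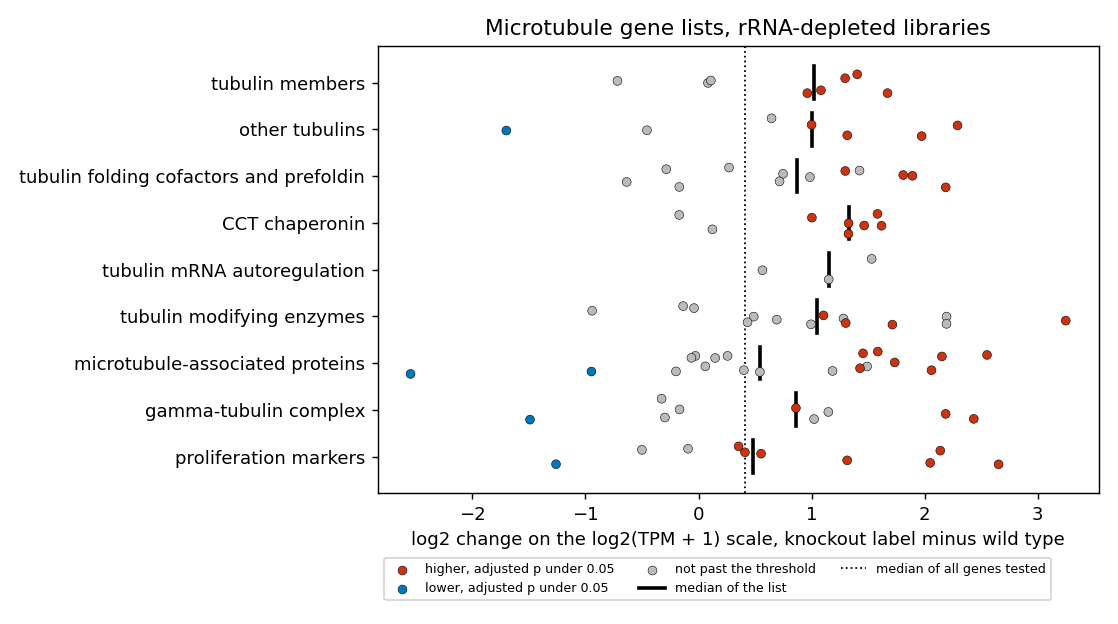
Log2 change on the log2(TPM + 1) scale, knockout minus wild type, for every tested gene of the tubulin members and 8 related lists in the rRNA-depleted libraries, with 1 point per gene, a bar at the list median and a dotted line at the median of all genes tested (0.41). The medians run from 0.48 for proliferation markers to 1.33 for the CCT chaperonin, with 1.02 for the 8 tubulin members.

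The genes whose profile over the 6 rRNA-depleted libraries was most like that of the leading isotypes were found among 3258 genes with a mean of at least 50 TPM, by the root mean square difference of centred log2(TPM + 1). For TUBA1B they were HSP90AB1 (0.03), PYGL (0.04) and SUMO2 (0.05). For TUBB they were TTI1 (0.04), GAPDH (0.05) and HNRNPL (0.05). GAPDH read 1198, 1146 and 1129 TPM in wild type and 3531, 3625 and 3815 TPM in knockout, a log2 change of 1.67. A change near that of TUBB follows from picking genes by likeness to TUBB in these libraries and is not a separate result. In the authors' deposited table the values for TTI1, GAPDH and HNRNPL were -0.35, -0.21 and 0.89, and those for HSP90AB1, PYGL and SUMO2 were -0.13, 0.30 and -0.24.

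Because METTL3 methylates adenosine in a short sequence context, the letters GGACT, a common form of that context, were counted on the transcript strand of each gene's principal GENCODE 29 transcript. TUBA1A and TUBA1B held 0, TUBB, TUBB2A and TUBB3 held 1 each, TUBB4B and TUBB6 held 3 each, and TUBA1C held 4, none of them in its coding part. Over 11747 tested genes with such a transcript the median was 0.934 per kb, and 91.6% held at least 1. Per kb, TUBB4B (1.83), TUBB6 (1.45) and TUBA1C (1.33) lay above this median, and TUBB (0.375), TUBB2A (0.627) and TUBB3 (0.565) below it. The 5 risers thus ranged from 0 copies in TUBA1B to 4 in TUBA1C. A match is a description of letters, not a mapped m6A site, and methylation was not measured in the files used here.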

How the data were processed

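RNA of HMC3 cells was sequenced after rRNA depletion (3 libraries per genotype) or poly(A) selection (5 per genotype), with an input of 100 ng, per the labels' protocols. The submitters' processing notes name Trimmomatic, STAR, DESeq2 and the build hg38. The counting tool, the annotation and the use of strand are not given in the sources used here. The authors deposited TPM for the rRNA-depleted libraries. Their poly(A) table gives, per the file headers, the mean normalized count over all libraries (a signal), the log2 fold change and its SE, the Wald statistic (a score), the p-value and the adjusted p-value. It was read as given, with no retest. All per-sample columns were used. A test on counts had been foreseen in case counts were deposited and was replaced by the test for TPM.

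The members and gene lists were chosen with earlier results of these data known. The TPM table was fitted in R 4.3.3 by limma 3.58.1 (lmFit, eBayes with trend) on log2(TPM + 1), a scale that understates changes of low genes. Genes needed at least 1 TPM in 3 or more libraries, genotype was the only term, and there was Benjamini-Hochberg adjustment over all genes tested. Tested on simulated data of this depth, the step missed many changed genes, and more of its calls were false than the threshold allows. A gene that did not pass is therefore not shown to be unchanged, and a single call can be false. Exon lengths, positions, GC content and sequences were those of GENCODE 29 (GRCh38), in which 56927 of 60669 identifiers (93.8%) were found. Reads were recovered from TPM and lengths, and 90.9% of values came out whole to within 0.02 reads. They gave the depth, the floor of 3 reads, and the chi-square test over genes with at least 10 reads in a pair. Intervals of counting error are not given for single values, and the depth behind them is given as reads. TBCE was not found by symbol. The last coding bases of the alpha genes are not reported here.

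Genes named are METTL3, the 8 members, every other tubulin tested, in each other list up to 2 genes that rose and 2 that fell most among those with adjusted p under 0.05 and groups that do not overlap, and the 3 genes with profiles most like TUBA1B and TUBB. Tubulins at 0 and the cell type markers were named from the fixed lists. 7SK, pseudogenes and TUBB2A's copies were named outside this rule, after their values were seen. Alternatives were the pseudocount, filter, scaling, GC trend, voom on recovered reads, separate libraries, the replicate block, leaving out each library, and stricter thresholds. Other steps used Python 3.11.15, numpy 2.4.6, pandas 2.3.3, scipy 1.17.1 and matplotlib 3.10.9.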

Additional observations from a re-analysis of the deposited data

How the results depend on the processing

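The 8 members were refitted under 15 alternatives (14 for TUBB3). TUBB stayed higher and past the threshold under all 15, with changes of 1.32 to 1.98. TUBA1B (0.61 to 1.38), TUBA1C (1.05 to 1.64) and TUBB4B (0.73 to 1.64) lost the call only without knockout library 3. TUBB2A (0.95 to 1.84) lost it there, with median ratio scaling and without wild-type library 3. TUBA1A reversed to -0.27 with median ratio scaling and -0.17 with voom, and leaving out 1 library gave -0.17 (without wild-type library 3) to 0.22. TUBB6 reversed to -0.24 with median ratio scaling and -0.14 with voom. The fitted value of TUBB3, which rests on 0 to 3 reads and is not a fold to read, ran from -1.48 (without wild-type library 3) to 0.090 (without knockout library 3). Differences in isotype share were rerun only with separate libraries, with a wider set of alpha or beta genes, and with each library left out. There they moved by less than the spread between replicates, and kept their sign except for TUBB2A, whose difference was near 0. Shares were not rerun with the GC trend removed, a setting that took the change of TUBB6 to 0.71. The cause of these changes was not tested.

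Of all genes tested, 5220 passed in the rRNA-depleted libraries (3382 higher, 1838 lower). Leaving out 1 library gave 1663 to 5185 genes, the lowest without knockout library 3, which leaves 1 knockout sample that is assumed to vary like wild type. A threshold of 0.01 gave 2242. Median ratio scaling gave 2364 higher and 2499 lower, quantile normalization 2668 and 2430, and voom 3864 and 3509, so that the balance of higher against lower calls followed the scaling. The median change of all genes was 0.41 as deposited, 0.11 with median ratio scaling and 0.08 with quantile normalization. The authors' deposited table had 2782 genes past the threshold, 1811 at 0.01 and 647 with a change of 1 or more in either direction on the log2 scale.

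Same-numbered wild-type and knockout libraries share only a number in the labels. Their deviations correlated at 0.02, -0.02 and 0.01 across genes. With so few reads per gene these values could miss a shared batch or culture, so pairing is not excluded. With the number as a replicate block 6037 genes passed (4037 higher), against 6880 (4633 higher) for 6 separate libraries without the block, and the same 5 members were higher in both fits.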
